A study of Mus musculus with 6 samples.

Results

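Chemokine receptor genes of macrophages were followed here in RNA sequencing of cultured mouse macrophages. Every row of the count table whose symbol was Ccr1, Ccr2, Ccr3, Ccr7, Ccrl2, Cxcr4 or Cx3cr1 was taken, which gave 7 genes out of 21878. The cells were bone marrow-derived macrophages of wild-type C57BL/6 mice, grown from femur and tibia marrow in 50 ng/mL M-CSF, the growth factor of macrophages. The age of the mice is not stated. Controls included, all macrophages had spent 48 h with LLC cells (lung carcinoma of the mouse) in a transwell whose 0.4 µm pores let medium through. After a change of medium, 1 group was given 100 µg/mL β-elemene, a sesquiterpene of plants, and the control group an equal amount of phosphate-buffered saline (PBS), each for 24 h. Each group had 3 libraries. Whether these were separate cultures or mice is not stated, so all p-values speak only of the spread among libraries, which may be technical.

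Chemokine receptors are G protein-coupled receptors that steer leukocytes along gradients of secreted chemokines, mostly through inhibitory G proteins. In the mononuclear phagocyte lineage, Ccr2 brings monocytes out of the marrow towards inflamed tissue, Cx3cr1 marks patrolling monocytes and many resident macrophages, Cxcr4 holds cells where its ligand Cxcl12 is made, and Ccr7 guides dendritic cells to lymph nodes. Ccrl2 is an atypical receptor that binds chemerin and presents it to the signalling receptor Cmklr1 rather than signalling by itself.

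Library totals lay between 18916844 and 20729887 counts. Levels are given as CPM, read counts scaled to a common library size with TMM, in which 3 counts, the most that a count of 0 allows, correspond to 0.116 to 0.195 CPM, covering counting error only. The macrophage label was checked against 10 macrophage markers, all detected, which summed to 15640 to 16201 CPM with β-elemene and 13621 to 14633 CPM with PBS. Lyz2, lysozyme, was the most abundant at 9200 ± 398 and 6773 ± 378 CPM (SD, n = 3 per group). Lymphocyte markers summed to at most 0.919 CPM in any library. Of 6 epithelial markers, 5 had at most 3 counts in every library, and the other, Cdh1, stood at 134 ± 14.1 CPM with PBS (SD, n = 3) and had at most 2 counts in a β-elemene library. In bulk RNA, fewer cells of a type and less RNA per cell cannot be told apart.

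Differences between β-elemene and PBS were tested with edgeR's quasi-likelihood test over all 11459 genes that passed a low-count filter, with Benjamini-Hochberg adjustment over those genes and a threshold of 0.05. All 7 receptor genes were tested. Of these, 3 were called higher with β-elemene (Ccrl2, Ccr7 and Cx3cr1), beside 36.6% of all genes tested, and 4 were called lower (Cxcr4, Ccr3, Ccr2 and Ccr1), beside 40.2%. A call in either direction was the rule in these data, with 76.7% of all genes passing, so the number of receptor genes called says little about them, and their sizes and spread carry the description. For 6 of the 7, all but Cx3cr1, the libraries of one group lay wholly above those of the other, beside 79.9% of all genes tested. Of these, 2 were higher with β-elemene and 4 lower, beside 37.9% and 42.0% of all genes. Ccrl2 rose and Cxcr4 fell by at least 16-fold, and changes of that size in those directions were found in 2.55% and 1.48% of all genes.

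**Figure D1:**
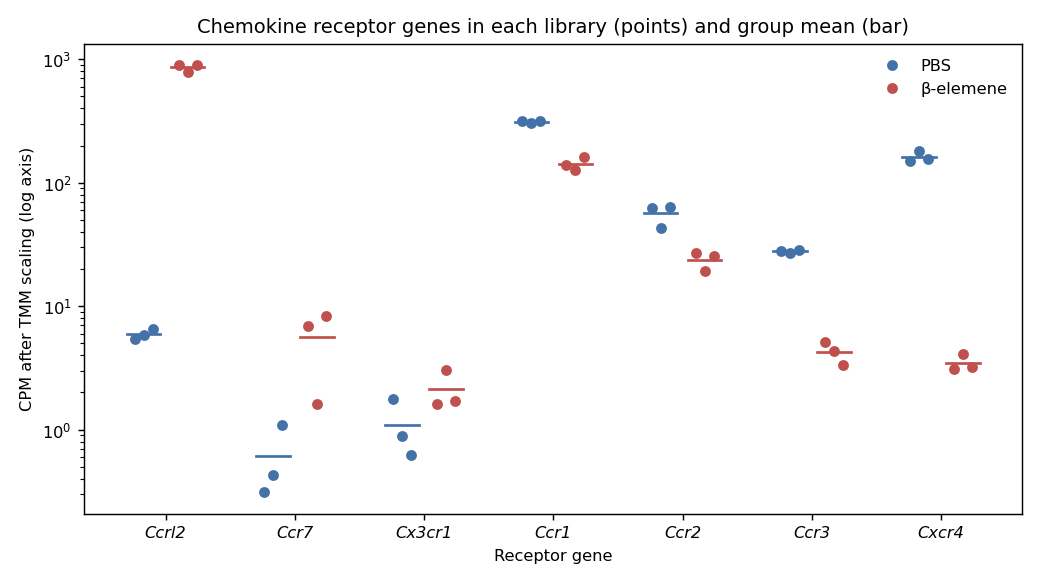
Level of each receptor gene in CPM after TMM scaling (log axis), with 1 point per library and a bar at the mean of the 3 libraries of a group. Ccrl2 stood near 5 to 7 CPM in the PBS libraries and at 795 to 893 CPM in the β-elemene libraries, Cxcr4 lay the other way round, and the points of Cx3cr1 overlapped between the groups.

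Ccrl2, the chemerin-binding receptor, showed the widest difference of the 7 genes. It stood at 891, 795 and 893 CPM in β-elemene replicates 1, 2 and 3 and at 5.46, 5.79 and 6.47 CPM in PBS replicates 1, 2 and 3. Every β-elemene library was thus far above every PBS library, with little spread inside either group. The log2 fold change was 7.18 (SE 0.09, edgeR adjusted p = 3.63e-15), a 145-fold rise, and only 58 of the 11459 genes tested had a higher one. The gene (chromosome 9, 111054834 to 111057518, minus strand, GRCm38.p6) lies apart from the other CC receptor genes on its chromosome. Its promoter is printed here because it carries the largest rise, and because the RefSeq promoter table (GRCm38.p6, 250 bases before to 50 after a start) held a match to a κB motif in it. Capitals mark motif matches, which are CACGT, whose other strand reads as the hypoxia response motif ACGTG, and the κB match GGACTTTCC. The window is chr9:111057469-111057768 on the minus strand.

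Ccrl2: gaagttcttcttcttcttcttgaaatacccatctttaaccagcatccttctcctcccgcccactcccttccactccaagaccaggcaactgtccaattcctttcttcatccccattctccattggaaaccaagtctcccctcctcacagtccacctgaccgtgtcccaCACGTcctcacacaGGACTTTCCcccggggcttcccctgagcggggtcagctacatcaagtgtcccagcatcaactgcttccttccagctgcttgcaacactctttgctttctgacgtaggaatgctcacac

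The κB motif was searched as GGNNTTTCC on both strands, and in Ccrl2 its first base lay at position -68 from the start. Of 32851 promoters of the same length, 5.82% held such a match, and 19.6% held ACGTG. The other motifs searched in this way were GAAANNGAA (interferon response half-sites, in 8.56% of promoters), TTCNNNGAA (the GAS element of STAT factors, 8.30%), TGANTCA (AP-1, 7.81%) and GAGGAA (the ETS site of PU.1, 28.3%). The table gives 2 further Ccrl2 starts downstream, whose windows overlap each other and hold a different CACGT and no match to the κB motif. A match is a description of letters, and binding was not measured.

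Cmklr1, the signalling receptor for chemerin, did not follow Ccrl2. It stood at 66.1 ± 12.6 CPM with β-elemene and 60.6 ± 5.63 CPM with PBS (SD, n = 3 per group), and its log2 fold change was 0.12 with an SE of 0.13 (edgeR adjusted p = 0.418). That value turned negative with the upper quartile (-0.19), without β-elemene replicate 2 (-0.01) and with library size alone (-0.51, where edgeR gave an adjusted p = 0.00721). The ratio of the pair within each library does not use any scaling. The log2 ratio of Ccrl2 to Cmklr1 counts was 3.72 ± 0.36 with β-elemene and -3.36 ± 0.13 with PBS (SD, n = 3 per group, two-sided exact permutation p = 0.1, the smallest that 3 against 3 libraries allow, and 0.133 after adjustment over 4 such ratios). Rarres2, which encodes chemerin, had 1, 0 and 1 counts in the β-elemene libraries and 6, 12 and 4 in the PBS libraries, and it did not pass the filter.

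Ccr7, the lymph node homing receptor, was scarce and uneven. It stood at 6.95, 1.63 and 8.40 CPM in β-elemene replicates 1, 2 and 3, from 113, 25 and 137 counts. The PBS libraries held 0.310, 0.427 and 1.09 CPM, from 8, 11 and 28 counts. The groups did not overlap, but β-elemene replicate 2 lay close to PBS replicate 3. The log2 fold change was 3.21 (SE 0.74, edgeR adjusted p = 0.00724), and the value ran from 2.83 without β-elemene replicate 3 to 3.92 without PBS replicate 3 when single libraries were left out, and was 2.57 with library size alone. Its adjusted p lay between 6.34e-07 and 0.0311 over all alternatives. The known ligand genes of Ccr7 were nearly silent, with 1 count in all for Ccl19 and 1 for Ccl21a.

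After TMM scaling, summed markers of dendritic cells and of monocytes, which can carry Ccr7 RNA, were higher in the same libraries, though not each marker was. Summed over 9 dendritic cell markers, the level was 361 to 525 CPM with β-elemene and 50.6 to 59.7 CPM with PBS. Cd83 was the most abundant of them at 221 ± 44.1 and 30.6 ± 2.47 CPM (SD, n = 3 per group). Ccl22 (132 ± 36.0 and 14.2 ± 1.62 CPM) and Fscn1 (88.1 ± 8.93 and 5.19 ± 1.94 CPM) came next. Together with Cd83 they made most of the sum. Of 5 tested, 4 were higher, while Zbtb46, a transcription factor of classical dendritic cells, fell (log2 fold change -2.23, edgeR adjusted p = 5.92e-05). Flt3, Dpp4, Xcr1 and Siglech had at most 12, 9, 6 and 4 counts in any library. Summed over 8 monocyte markers, the level was 31.4, 22.0 and 38.9 CPM in β-elemene replicates 1, 2 and 3 and 14.8 to 16.6 CPM with PBS. β-elemene replicate 2 was therefore the lowest of its group for Ccr7 and for both marker sums. The part of other cells in the Ccr7 result was not tested.

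Cx3cr1, the fractalkine receptor, was near the limit of what these libraries can show. It held 26, 47 and 28 counts in β-elemene replicates 1, 2 and 3 (1.60, 3.06 and 1.72 CPM) and 46, 23 and 16 in PBS replicates 1, 2 and 3 (1.78, 0.893 and 0.624 CPM). The groups overlapped, since PBS replicate 1 lay above β-elemene replicates 1 and 3. At 0.94 on the log2 scale, with an SE of 0.39, the difference passed narrowly (edgeR adjusted p = 0.0462). It no longer passed with the upper quartile (0.62, adjusted p = 0.161), with library size alone (0.30, adjusted p = 0.476) or when any of 4 single libraries was left out (without β-elemene replicate 2 the value was 0.61, adjusted p = 0.195). The value without PBS replicate 1 was 1.47 (adjusted p = 0.0052). An antisense gene, Gm33858, overlaps Cx3cr1, and reads of the pair cannot be told apart if counting ignored strand, and the strand setting is not stated.

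Cxcr4, the receptor for Cxcl12, fell furthest. It stood at 3.07, 4.10 and 3.19 CPM in β-elemene replicates 1, 2 and 3 and at 150.4, 180.1 and 155 CPM in PBS replicates 1, 2 and 3. The 2 groups were far apart, and the libraries of each lay close together. The log2 fold change was -5.55 (SE 0.11, edgeR adjusted p = 1.15e-13), a 47.0-fold fall, and 59 of the 11459 genes tested had a lower one. Cxcl12 itself was nearly absent from both groups, with 1 to 3 counts per β-elemene library and 7 to 10 per PBS library. Mif, a cytokine that also binds Cxcr4, stood at 51.3 ± 4.83 and 52.7 ± 0.259 CPM (SD, n = 3 per group; log2 fold change -0.04, edgeR adjusted p = 0.621). The Mif value was 0.00 with median-of-ratios scaling and -0.68 with library size alone.

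The Cxcr4 promoter is printed beside that of Ccrl2 as the largest fall beside the largest rise, and none of the 6 motifs searched had a match in it, so no letter is in capitals. The gene lies on chromosome 1 (128588199 to 128592299, minus strand, GRCm38.p6), and the window is chr1:128592250-128592549 on the minus strand.

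Cxcr4: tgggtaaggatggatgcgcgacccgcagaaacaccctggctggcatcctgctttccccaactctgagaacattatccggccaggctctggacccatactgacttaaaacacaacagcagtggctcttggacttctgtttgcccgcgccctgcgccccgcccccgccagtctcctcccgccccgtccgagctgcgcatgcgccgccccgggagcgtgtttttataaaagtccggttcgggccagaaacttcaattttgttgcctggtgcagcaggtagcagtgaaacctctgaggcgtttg

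Ccr1, Ccr3 and Ccr2 lie in 1 cluster on chromosome 9 and were all lower with β-elemene, by different amounts. Measured from the start coordinate of Ccr1 (123962126 to 123968692, minus strand, GRCm38.p6), that of Ccr3 (124017825 to 124031692, plus strand) is 55699 bases further on and that of Ccr2 (124101918 to 124109140, plus strand) is 139792. Ccr1 binds several inflammatory chemokines, Ccl3 and Ccl5 among them. It stood at 139, 126 and 160.0 CPM in β-elemene replicates 1, 2 and 3 and at 314, 307 and 317 CPM in the PBS libraries. All PBS libraries lay above all β-elemene libraries, and the log2 fold change was -1.14 (SE 0.08, edgeR adjusted p = 1.32e-08).

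Ccr2, the receptor for Ccl2, stood at 27.2, 19.1 and 25.3 CPM in β-elemene replicates 1, 2 and 3 and at 62.9, 42.9 and 63.8 CPM in PBS replicates 1, 2 and 3. Replicate 2 was the lowest of its group on both sides. The groups did not overlap, and the log2 fold change was -1.24 (SE 0.20, edgeR adjusted p = 0.00129). Of all 50-base words in the Ccr2 transcripts, 1.91% also occur in transcripts of other genes. Ccr2 counts could thus hold some reads of other genes or lack some of their own, depending on how shared reads were counted. Ccr1, Ccr3, Ccr7, Ccrl2 and Cxcr4 shared no such word with another gene.

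Ccr3, the eotaxin receptor known from eosinophils, stood at 5.10, 4.30 and 3.31 CPM in β-elemene replicates 1, 2 and 3. The PBS libraries held 28.1, 26.8 and 28.4 CPM. The PBS libraries were tightly grouped and all above the others, and the log2 fold change was -2.71 (SE 0.12, edgeR adjusted p = 2.10e-10), a 6.55-fold fall. Of 7 eosinophil markers, 2 (Siglecf and Ear2) passed the filter and were lower in the same libraries, and 5 were too low to test. Summed over all 7, the markers reached 5.47 to 6.96 CPM with β-elemene and 17.3 to 19.6 CPM with PBS. Most of this came from Siglecf (3.93 ± 0.585 and 13.3 ± 0.597 CPM, SD, n = 3 per group) and Ear2, which macrophages can also make. Epx, the eosinophil peroxidase, had at most 5 counts in any library and Ear1 at most 1. Prg2 was at like levels with β-elemene and PBS (0.441 ± 0.275 and 0.427 ± 0.206 CPM, SD, n = 3 per group). Il5ra and Ear6 had at most 4 and 2 counts in any library. The part of eosinophils in the Ccr3 result was not tested.

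The Ccr3 promoter is printed because this gene fell most in the cluster and because 3 of the motifs had matches in it. They are GAGGAA at position -181, which overlaps a κB match on the other strand at -179 (GGAAATTCC), and the AP-1 match TGAGTCA at -144. The window is chr9:124021721-124022020 on the plus strand.

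Ccr3: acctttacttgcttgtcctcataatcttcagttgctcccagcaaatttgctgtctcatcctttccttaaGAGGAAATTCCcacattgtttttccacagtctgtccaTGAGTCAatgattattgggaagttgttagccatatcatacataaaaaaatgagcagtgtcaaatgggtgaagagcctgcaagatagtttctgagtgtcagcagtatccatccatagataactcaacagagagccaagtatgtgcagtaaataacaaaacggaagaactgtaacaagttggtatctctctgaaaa

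The Ccr1 promoter held 1 GAGGAA, the Ccr2 promoter held 1 GAAANNGAA match on the other strand, and the Cx3cr1 promoter held no match to the 6 motifs. Promoters of 6 of the 7 genes were found in the table, all but that of Ccr7. Both Ccrl2, which rose, and Ccr3, which fell, had a κB match in these windows.

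Ratios within a library set Ccr1, Ccr2 and Ccr3 against each other without any scaling. The log2 ratio of Ccr3 to Ccr1 counts was -5.08 ± 0.45 with β-elemene and -3.49 ± 0.02 with PBS (SD, n = 3 per group; groups apart, two-sided exact permutation p = 0.1, the smallest possible here, 0.133 after adjustment over 4 ratios). Every β-elemene library had less Ccr3 per Ccr1 than every PBS library. The ratio of Ccr2 to Ccr1 was -2.58 ± 0.20 and -2.49 ± 0.30, overlapping between the groups (exact permutation p = 0.8).

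With TMM scaling, the genes around the receptors moved in both directions. Within 250 kb of Ccr1 and at a mean of at least 1 CPM, Fyco1, an adaptor of vesicle transport, rose (log2 fold change 0.50, edgeR adjusted p = 1.90e-05), as did Ccr9, the gut homing receptor. Around Ccrl2, Lrrfip2 rose by 0.73 on the log2 scale, while Prss46, Als2cl and Epm2aip1 were lower at -2.78, -1.40 and -1.21. Around Ccr7, Smarce1 rose by 0.32, and Cdc6, Top2a, Rara and Igfbp4 were lower at -2.38, -2.28, -1.51 and -0.53. Dars, next to Cxcr4, was lower at -0.69. Around Cx3cr1, Csrnp1 and Wdr48 rose (1.14 and 0.47), Gorasp1 and Rpsa fell (-2.03 and -0.40), and Slc25a38 did not pass (0.25, edgeR adjusted p = 0.0618). Within 250 kb of Ccr2, 2010315B03Rik fell (-0.76) and Gm39469 did not pass (0.13, edgeR adjusted p = 0.287). Among these neighbours Ccr9 had the largest change in size, at 3.93, and it was 3.30 with library size alone. That scaling moves the median of all genes tested from -0.06 to -0.70. Rises as small as those of Smarce1, Wdr48, Fyco1 and Lrrfip2 therefore depend on the scaling.

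Seen per library, the 7 genes together held 953 to 1095 CPM with β-elemene and 563 to 572 CPM with PBS. The size of that difference depends on the scaling. Before scaling, counts on the 7 genes were 17474, 14650 and 17860 with β-elemene and 14534, 14513 and 14689 with PBS. β-elemene replicate 2, the smallest library, then lay below PBS replicate 3, but raw counts are not adjusted for depth. Their library totals were 18916844 and 20678051 counts. The mix inside the sum differed. Ccrl2 took 82.6% ± 0.949 of the counts on the 7 genes with β-elemene and 1.04% ± 0.0811 with PBS (SD, n = 3 per group). Cxcr4 took 0.336% ± 0.0817 and 28.6% ± 2.90, and Ccr1 took 13.6% ± 0.891 and 55.2% ± 0.686. These shares do not depend on library scaling, and the groups did not overlap for the 3 genes (two-sided exact permutation p = 0.1, the smallest possible, 0.14 after adjustment over 7 genes). Counted per kilobase of exon the share of Cxcr4 with PBS was 40.8% ± 3.04, and that of Ccrl2 with β-elemene was 84.7% ± 0.962.

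**Figure D2:**
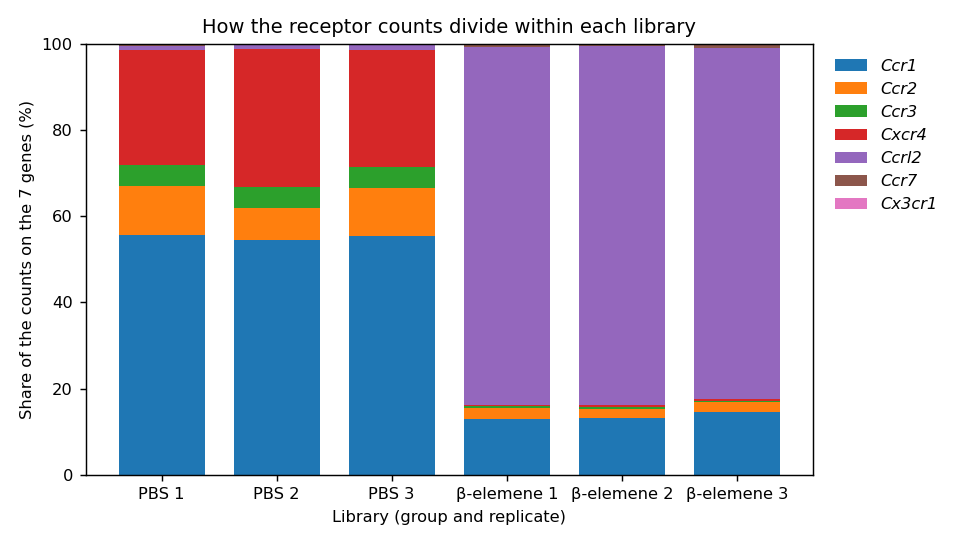
Share of each receptor gene among the counts on all 7 genes, in percent, with 1 stacked bar per library (PBS replicates 1 to 3, then β-elemene replicates 1 to 3). Ccr1 and Cxcr4 filled most of the PBS bars (55.2% and 28.6% on average), and Ccrl2 filled most of the β-elemene bars (82.6% on average).

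Levels between genes were compared as CPM per kilobase of exon (GENCODE M21 exon lengths). With PBS the order was Ccr1 (110.3 ± 1.82), Cxcr4 (89.6 ± 8.79), Ccr3 (8.48 ± 0.258), Ccr2 (8.36 ± 1.75), Ccrl2 (2.27 ± 0.198), Ccr7 (0.308 ± 0.213) and Cx3cr1 (0.244 ± 0.134), as mean ± SD with n = 3. The ranges of Ccr3 and Ccr2 overlapped, as did those of Ccr7 and Cx3cr1, and the other neighbours in the order were apart. With β-elemene the order was Ccrl2 (331 ± 21.6), Ccr1 (50.1 ± 5.99), Ccr2 (3.53 ± 0.621), Ccr7 (2.86 ± 1.80), Cxcr4 (1.91 ± 0.311), Ccr3 (1.29 ± 0.274) and Cx3cr1 (0.472 ± 0.180). There Ccr7 overlapped both of its neighbours, Ccr2 and Cxcr4. Cmklr1 lay between Ccr1 and Ccr2 with β-elemene (19.4 ± 3.70), apart from both.

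Of the 18 other chemokine receptor genes looked for, 5 had enough counts to be tested. Of these, 2 were higher and 1 was lower, beside 36.6% and 40.2% of all genes tested, and 2 did not pass. Ccr9 stood at 3.64 ± 0.397 CPM with β-elemene against 0.233 ± 0.202 CPM without it (SD, n = 3 per group; log2 fold change 3.93, edgeR adjusted p = 6.40e-07). Cxcr3, the receptor for interferon-induced chemokines, had 19, 13 and 30 counts against 11, 14 and 6 (log2 fold change 1.67, edgeR adjusted p = 0.00252). Cxcr2, the neutrophil receptor for Cxcl1 and Cxcl2, was the one that was lower, with 1, 1 and 0 counts against 39, 28 and 41, a ratio of PBS to β-elemene of 33.5 after TMM scaling (95% exact counting interval 9.06 to 280.3). Ccr4, Ccr8 and Cxcr1 had no count in any library. The median log2 fold change of the 5 tested genes was 0.12, beside -0.06 over all genes tested.

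The ligand genes of these receptors mostly went up while the receptors Ccr1, Ccr2 and Ccr3 went down. Of 16 ligand genes in the list, 11 were tested. Of these 8 rose and 2 fell, beside 36.6% and 40.2% of all genes tested, and Mif did not pass. Their median log2 fold change was 2.25, beside -0.06 over all genes. Among the ligands of Ccr1, Ccl3 rose from 12.8 ± 2.58 to 3954 ± 279 CPM and Ccl5 from 133 ± 41.7 to 3526 ± 163 CPM (SD, n = 3 per group; log2 fold changes 8.27 and 4.73, edgeR adjusted p = 1.27e-12 and 7.20e-06). Ccl9 rose by 1.03 on the log2 scale, and Ccl6 fell by 0.41. Ccl4, a close relative of Ccl3, rose by 6.14.

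All 3 ligand genes of Ccr2 rose. Ccl2 stood at 431 ± 109 against 22.1 ± 6.18 CPM (SD, n = 3 per group; log2 fold change 4.29, edgeR adjusted p = 4.16e-05), Ccl12 rose by 3.65, and Ccl7, which also binds Ccr1 and Ccr3, rose by 2.17. For Ccr3 the picture was mixed: Ccl24, eotaxin 2, fell with its receptor from 45.4 ± 12.9 to 8.48 ± 0.849 CPM (log2 fold change -2.42, edgeR adjusted p = 1.80e-04), and Ccl11, eotaxin 1, had 2 counts in all. Cx3cl1, fractalkine, held 51, 32 and 33 counts with β-elemene and 11, 15 and 13 with PBS, and rose by 2.25 (edgeR adjusted p = 1.97e-05).

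**Figure D3:**
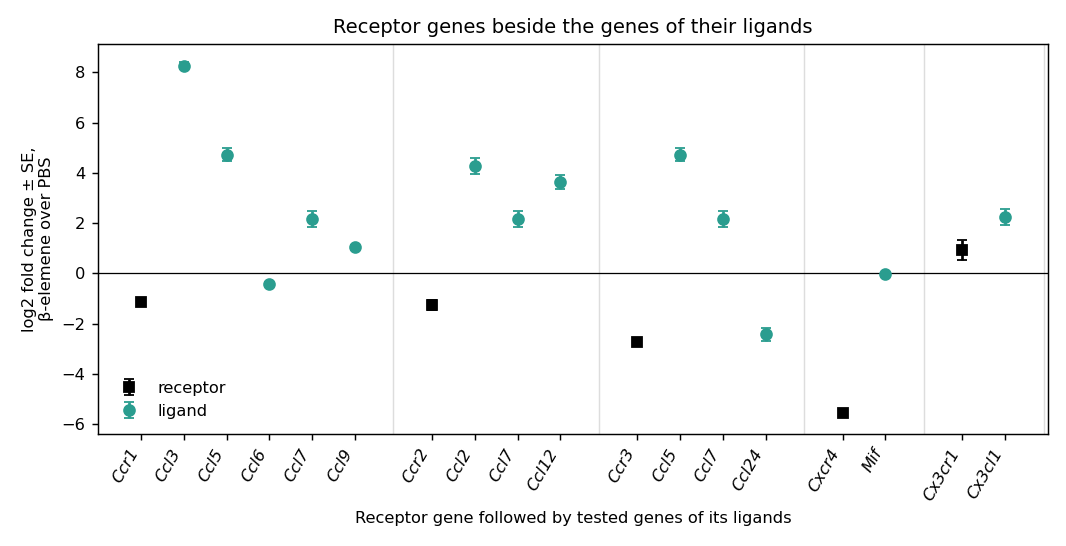
log2 fold change of β-elemene over PBS with its SE for 5 receptor genes (squares), each followed by the tested genes of its ligands (circles), with Ccl5 and Ccl7 drawn under each receptor they bind. Ccr1, Ccr2 and Ccr3 lay at -1.14, -1.24 and -2.71, while their ligand genes lay above 0 except Ccl6 (-0.41) and Ccl24 (-2.42).

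Genes that carry the receptors' signal were largely higher on this scaling. Of 24 in the list 23 were tested, 20 higher and 2 lower, beside 36.6% and 40.2% of all genes tested, and 1 not passing. Their median log2 fold change was 0.78. With library size alone, however, 12 were higher and 8 lower. That scaling moves the median of all genes tested from -0.06 to -0.70. Ptk2b, a calcium-activated kinase of focal adhesions, Pik3r6, a regulatory subunit of PI3Kγ, and Rap1b, a small GTPase of integrin activation, rose by 2.30, 2.23 and 1.91. These 3 stayed positive with library size alone (1.67, 1.60 and 1.28). Plcb2, a phospholipase driven by G protein βγ subunits, and Gnai3, an inhibitory G protein α subunit, fell by 1.35 and 0.24.

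Genes that end the signal divided. Of 17 tested genes of receptor desensitisation and G protein braking, 8 were higher, 7 lower and 2 did not pass (5 higher and 10 lower with library size alone). Over all genes tested 36.6% were higher and 40.2% lower, so such a split says little about this list. The median log2 fold change of the 17 was 0.25. Rgs1 and Rgs14, which speed up the switching-off of G proteins, rose by 4.40 and 4.17, and Grk5, a receptor kinase, by 1.73. Both arrestin genes fell, Arrb1 from 145 ± 3.28 to 17.2 ± 5.26 CPM (SD, n = 3 per group; log2 fold change -3.08, edgeR adjusted p = 2.70e-06) and Arrb2 by 1.10. Rgs10 fell by 1.13.

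Receptors for other chemoattractants also showed large changes in both directions. Of 9 tested, 4 were higher, 4 lower and 1 did not pass, with a median of 0.21. That split is near the one over all genes tested, 36.6% higher and 40.2% lower. Fpr1 and Fpr2, receptors for formylated peptides, and Ptafr, the receptor for platelet-activating factor, rose by 10.35, 8.40 and 2.78 on the log2 scale. Gpr183, the oxysterol receptor, S1pr1, a sphingosine phosphate receptor, and Ltb4r1, a leukotriene B4 receptor, fell by 5.04, 4.73 and 2.83. Fpr1 had 5 counts over the PBS libraries, so its fitted value depends on the prior count.

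Genes whose pattern over the 6 libraries was most like that of each receptor were found by the root-mean-square difference of log2 CPM after centring each gene. For Ccrl2 these were Nfkbiz, a regulator of NF-kB target genes, and Klrk1, with differences of 0.0481 and 0.122. For Cxcr4 they were Rab3il1 and Angptl2 (0.176 and 0.181), for Ccr1 Trub1 and Irf2bpl (0.0388 and 0.0504), for Ccr2 Zfp773 and Cbx5 (0.103 and 0.115), and for Ccr3 Zfp398 and Tnfaip8l1 (0.0691 and 0.0752). For Ccr7 the nearest was Plac8, a gene of the monocyte list with 3.58 CPM in β-elemene replicate 2 and 10.6 and 14.2 in the others, at a difference of 0.399. For Cx3cr1 they were Vamp5 and Sik1 (0.323 and 0.335). With 2 groups, likeness here is mostly a like difference between the groups.

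**Figure D4:**
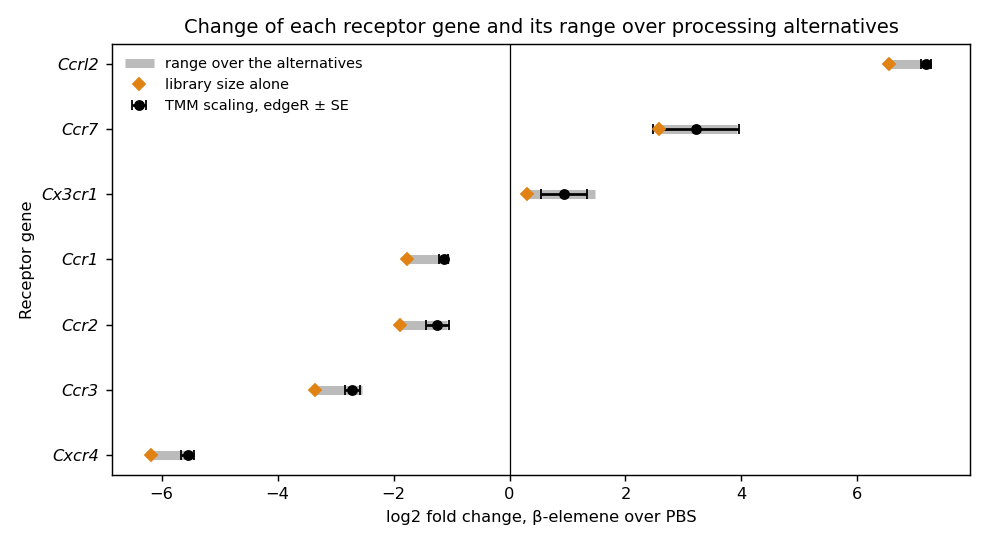
log2 fold change of β-elemene over PBS for each receptor gene, with a black point and SE bar for TMM scaling, an orange diamond for library size alone and a grey band for the range over all alternatives. No band crosses 0, the band of Cx3cr1 comes nearest (0.30 to 1.47), and library size alone gives the lowest value of each gene.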

How the data were processed

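Paired-end reads came from strand-specific poly(A) libraries, per the labels' protocols. HISAT2 2.2.1.0 is listed as a tool, with GRCm38.p6 and mm10 as builds, per the submitters' processing notes. What the authors deposited is a table of raw counts, 1 row a gene. Neither the counting tool nor its strand setting is stated.

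Sample titles gave the group and the replicate number. Of 21878 genes, filterByExpr kept 11459 (count of at least 10, total of at least 15), which were scaled with TMM. Testing used glmQLFit (robust) and glmQLFTest of edgeR 4.0.16 under R 4.3.3, with group as the only term and 4 residual degrees of freedom. Each SE is the size of the log2 fold change over the square root of F. Where a group held 3 counts or fewer in all, summed counts were compared with an exact binomial interval, which covers counting error only. The pipeline was run on simulated counts in which only a small part of the genes changed. Most genes pass in these data, so that check does not cover the choice of scaling. Replicate pairs differed by more than counting noise (chi-square per degree of freedom 3.82 to 13.8).

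The 7 genes and all lists were chosen with earlier results of these data known. The genes named beside them were the detected other receptors and ligands, up to 3 passing genes per direction in the 3 lists of transducers, signal-ending genes and other chemoattractant receptors (mean of at least 1 CPM), neighbours within 250 kb and the nearest patterns. The within-library ratios and the search for shared words were chosen after seeing the data. Alternatives were other scalings, other filters, DESeq2 1.42.0, limma-voom (limma 3.58.1), a replicate block and leaving out each library. Of the other marker lists, summed neutrophil markers stood at 27.1 to 30.4 CPM with β-elemene and 11.8 to 15.5 with PBS, mast cell and basophil markers at 1.63 to 2.88 and 0.581 to 0.896, and fibroblast markers at 1.69 to 3.87 and 13.2 to 17.2. Adrbk1 and Adrbk2 were matched to Grk2 and Grk3 by gene identifier. Protein sequences were not used here, and some genes of the lists and of the neighbourhoods are not reported here.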

Additional observations from a re-analysis of the deposited data

How the results depend on the processing

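Ccrl2, Ccr7, Ccr1, Ccr2, Ccr3 and Cxcr4 kept their direction and their call under every alternative run, while the call of Cx3cr1 was lost under 6. Its log2 fold change of 0.94 was 0.62 with the upper quartile and 0.30 with library size alone, and 0.61 to 1.47 when single libraries were left out, with the call lost without β-elemene replicate 2 or 3 or PBS replicate 2 or 3. The number of receptor genes called higher was then 2 in place of 3. Its share of the receptor counts, 0.0142 percentage points higher with β-elemene, lay between -0.0419 and 0.0751 when single libraries were left out. Per kilobase the difference in share was -37.5 points for Ccr1, -2.92 for Ccr2, -3.53 for Ccr3, 83.6 for Ccrl2 and -40.3 for Cxcr4, against -41.6, -7.70, -4.49, 81.6 and -28.3 by counts.

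Library size alone called 2166 genes higher and 8003 lower in place of 4189 and 4602, and the upper quartile 2947 and 6528. With library size alone 12 transducer genes were higher and 8 lower, 5 signal-ending genes were higher, and 3 other receptors were lower. Among the other receptors 4 were higher with no filter and 1 with a filter of 1 CPM in 3 libraries, and 2 were lower with the upper quartile, no filter, limma-voom, the replicate block, and without β-elemene replicate 3 (1 to 2 over single libraries left out). Cmklr1 turned to -0.19 with the upper quartile and -0.51 with library size alone, and lay between -0.015 and 0.24 when single libraries were left out, lowest without β-elemene replicate 2. Mif turned to 0.00052 with median-of-ratios scaling and 0.00057 with DESeq2, and lay between -0.074 and 0.048 when single libraries were left out.

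Over all genes tested, the replicate numbers showed no clear pairing of the samples. Deviations from the group means correlated at -0.03, 0.06 and 0.02 for the same numbers over 11459 genes. Of 3 β-elemene libraries, 1 correlated best with its own number. A correlation over all genes cannot exclude a pairing that touches some of them. With the replicate block 4188 genes were higher and 4605 lower, and no call of the 7 genes changed (Ccr2 at -1.24 and Ccr7 at 3.16). With that block the edgeR adjusted p went from 0.00129 to 1.29e-11 for Ccr2 and from 0.00724 to 1.23e-06 for Ccr7. Low counts limit Ccr7 with PBS, Cxcl12, Rarres2 and most of the other receptors.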

Other observations

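Replicate 2 of both groups was low for several genes of this system. Ccr1, Ccr2 and the ligand genes Ccl2, Ccl3, Ccl4, Ccl7, Ccl12 and Ccl24 each had their lowest value of the β-elemene group in replicate 2 and their lowest value of the PBS group in replicate 2. Ccl2 stood at 643, 386 and 676 counts in PBS replicates 1, 2 and 3 and at 7611, 4730 and 8415 in β-elemene replicates 1, 2 and 3. Among the 10764 tested genes that averaged 1 CPM or more, 15.4% were lowest in replicate 2 of both groups, beside 9.89% for replicate 1 and 10.3% for replicate 3. Of the 7 receptor genes 2 did so for replicate 2 and 1, Cxcr4, for replicate 1. The pattern was noticed in the data, and whether the numbers mark a shared culture is not given in the sources used here.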
